A study of Bos taurus with 8 samples.

Results

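Plasma cells and plasmablasts, the antibody-secreting stages of the B cell lineage, were examined in bovine peripheral blood mononuclear cells (PBMCs). These came from whole blood treated with lipopolysaccharide (LPS), a component of the outer membrane of Gram-negative bacteria. They were chosen by their raw UMIs (unique molecular identifiers, each standing for 1 captured mRNA molecule). A barcode of the single-cell RNA sequencing (scRNA-seq) tables was kept where it had at least 200 genes and 3000 UMIs, and it was called a plasma cell where JCHAIN and MZB1 each had at least 5 UMIs, MS4A1 had at most 1, and CD14 and CD3E had none. The rule chose 216 of 23399 kept barcodes, which themselves came from 30756 barcodes. The same rule set no upper limit on genes per barcode. For comparison, 2742 barcodes with at least 2 UMIs of MS4A1 and 1 of CD79A, at most 1 of JCHAIN and 4 of MZB1, and none of CD14 and CD3E were taken as B cells. T cells were 10203 barcodes with at least 2 UMIs of CD3E and none of MS4A1 and CD14.

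Blood of 4 lactating Holstein females aged 2 years was pooled and divided into a part with no LPS and parts with 2 µg/ml LPS for 2 h, 4 h and 8 h. PBMCs were isolated after the treatment. Each treatment gave 1 scRNA-seq library, so differences between treatments had no replicate check and no p-value. No incubation time was given for the part with no LPS, so LPS and incubation time cannot be told apart. Intervals below are exact 95% intervals (Poisson for summed UMIs, binomial for shares of cells) and cover counting error only.

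Plasma cells arise from activated B cells under the transcription factors IRF4, PRDM1 and XBP1, which together shut down the B cell program and expand the endoplasmic reticulum (ER) so that immunoglobulin can be folded and exported at a high rate. Plasmablasts are their dividing precursors and are the usual antibody-secreting cells of blood, on their way to bone marrow and mucosa. JCHAIN joins the units of polymeric IgA and IgM, and MZB1 is an ER chaperone for immunoglobulin heavy chains. TNFRSF17 is the receptor for survival factors of the TNF family known as BCMA. LPS is sensed through the Toll-like receptor TLR4 with its partner LY96. The signal ends in NF-kB, the factor that switches on inflammatory genes, and in the secretion of type I interferon by responding cells, which acts on neighbouring cells.

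Plasma cells were rare in each library. With no LPS, 69 of 6204 kept barcodes were plasma cells, a share of 1.11% (0.866 to 1.41). At 2 h there were 79 of 7869, or 1.00% (0.796 to 1.25). At 4 h there were 56 of 6710, or 0.835% (0.631 to 1.08). At 8 h there were 12 of 2616, or 0.459% (0.237 to 0.800). The shares were thus lowest at 8 h, where the interval lay below that with no LPS, and the intervals of the other libraries overlapped. The 8 h library was also the smallest, with 3860 barcodes against 7977 to 10429 in the others and 30902952 UMIs against 56453080 to 63770426. Loss of plasma cells, capture of fewer of them and the makeup of the remaining blood cells cannot be told apart in 1 library. Pairs of libraries shared 8 to 24 barcodes, and no plasma cell barcode was a plasma cell barcode in another library.

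**Figure D1:**
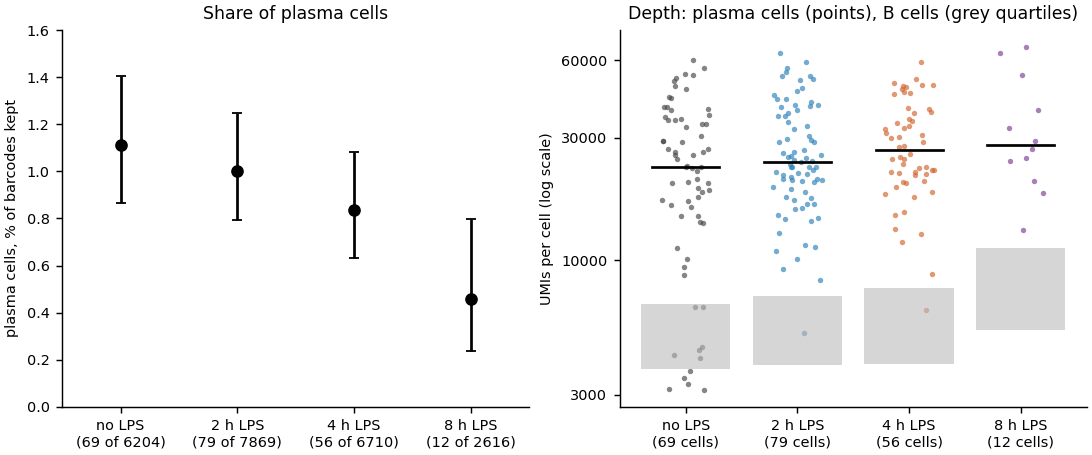
Left, plasma cells as a percentage of kept barcodes in each library, with exact binomial 95% intervals as lines. Right, UMIs per cell on a log scale, with each plasma cell as a point and the quartiles of B cells in grey. The shares run from 1.11% with no LPS to 0.459% at 8 h, and the plasma cell medians of 23136 to 28111 UMIs lie above the B cell quartiles in each library.

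Depth was partly set by the choice of cells, since members needed at least 5 raw UMIs of JCHAIN and MZB1, and B cells were capped below that. How far the choice raised the values below was not tested. Plasma cells held many UMIs per cell. Their medians were 23136, 24070, 26877 and 28111 UMIs in the order no LPS, 2 h, 4 h and 8 h, and single cells ranged from 3144 UMIs with no LPS to 67475 at 8 h. Over all libraries the median was 24820, against 5413 in B cells and 4944 in T cells. More than 3000 genes, the upper limit of the study's own filter, were detected in 143 of 216 plasma cells, a share of 66.2% (59.5 to 72.5), against 3.21% (2.58 to 3.94) of B cells, so that the study's limit would remove most of these cells. When each cell was thinned at random to 3000 UMIs, the median number of genes in plasma cells was 1039, 1059, 1008.5 and 1039.5 with no LPS, 2 h, 4 h and 8 h, respectively, below the 1140.5 to 1179 of B cells. At equal depth, plasma cells therefore spread their RNA over fewer genes than B cells. T cells lay between the 2 classes, with medians of 1080 to 1093 genes, closer to plasma cells than to B cells. No doublet caller was run. Of 516 barcodes that passed on JCHAIN and MZB1, MS4A1 alone left out 54, CD14 alone 64, CD3E alone 60 and more than 1 criterion 122, and the left-out barcodes had medians of 37779 to 70913 UMIs per library. Those left out by CD14 alone were 41 with no LPS and 16, 3 and 4 at 2 h, 4 h and 8 h. Few of the kept barcodes that met all other criteria of the rule lay near the threshold of 5 UMIs. Among those, MZB1 had 4 UMIs in 2 barcodes just outside it. It had 5 UMIs in 3 barcodes and 6 UMIs in 3 barcodes just inside it. None of the barcodes that met all criteria other than that on JCHAIN had 3 to 6 UMIs of JCHAIN. Barcodes low in both genes were not counted.

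The label was checked with the 5 markers JCHAIN, MZB1, TNFRSF17, XBP1 and PRDM1. JCHAIN and MZB1 chose the cells and are given as a description. Median UMIs per cell of JCHAIN were 223, 266, 366 and 363 with no LPS, 2 h, 4 h and 8 h, and those of MZB1 were 60, 92, 90.5 and 51.5. JCHAIN summed over plasma cells stood between 12070 and 13275 CPM (counts scaled to a sum of 1000000 per library and class) in all libraries, and MZB1 between 1784 CPM at 8 h and 3456 CPM at 2 h. The other markers were not used by the rule. TNFRSF17 had a UMI in 35 of 69, 47 of 79, 34 of 56 and 3 of 12 plasma cells in the same order. XBP1 was found in 41, 49, 32 and 9 of them, and PRDM1 in 61, 72, 53 and 12. At 3000 UMIs per cell, TNFRSF17 was detected in 20.4% of plasma cells, 0.146% of B cells and 0.157% of T cells. PRDM1 was detected in 42.1%, 4.23% and 6.64%, and XBP1 in 14.4%, 1.13% and 4.13% of the same classes. All of these markers were thus detected more often in plasma cells than in classes that should lack or barely express them, and the label holds by these markers.

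Markers of other blood cells were then summed. The rule itself asked for no UMI of CD14 and CD3E, which are in neither list below, and low levels of T cell and monocyte markers were partly set by the choice of cells, so they are no independent check of the name. The 10 T cell markers in the tables summed to 17.0 to 42.4 CPM in plasma cells, against 1820 to 1980 CPM in T cells, and 1 of them was at 0 in all plasma cells. The 12 monocyte markers summed to 67.8 to 191 CPM in plasma cells and to 222 to 254 CPM in T cells, with 1 of them at 0 in all plasma cells. The 10 plasmacytoid dendritic cell markers summed to 259 to 442 CPM in plasma cells and to 491 to 779 CPM in B cells, but to 144 to 325 CPM in T cells, below the plasma cells of each library. In 16 of 216 plasma cells, 4 with no LPS, 9 at 2 h and 3 at 4 h, FLT3, IL3RA, IRF8, SPIB and TCF4 together had more UMIs than TNFRSF17, PRDM1, XBP1 and POU2AF1. NK and cytotoxic markers summed to 400.0 to 839 CPM over 8 genes, and most of that sum was GNLY, described below.

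Plasma cells were then compared with B cells of the same libraries, which asks what an antibody-secreting cell of this blood expresses that a resting or activated B cell does not. The UMIs of each class were added up within each library, and these sums were tested with edgeR's quasi-likelihood test, with the library as a term, so that each gene rested on 4 pairs. The adjusted p-values of this test are Benjamini-Hochberg values over 10101 genes tested. They measure the spread of the class difference between libraries of 1 pooled blood, each of another treatment, not between animals or replicates. Of 10097 genes without those of the rule, 2575 were higher in plasma cells (25.5%) and 2741 lower (27.1%) at an adjusted p under 0.05, and the median log2 difference of all genes was -0.10. With so many genes called, a share of a list near 25.5% or 27.1% says nothing of the list. The classes differ by the definition in JCHAIN, MZB1, MS4A1, CD14, CD3E and CD79A, which were left out of the counts. Genes that accompany JCHAIN and MZB1 in any secretory cell are not independent of the choice.

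The transcription factors of plasma cells rose in 7 of 8 cases, with a list median of 3.33 on the log2 scale. PRDM1, the repressor known as Blimp-1, stood at 143, 168, 169 and 138 CPM in plasma cells with no LPS, 2 h, 4 h and 8 h, against 6.98 to 25 CPM in B cells, a log2 difference of 3.72 ± 0.22 (SE, n = 4 pairs, adjusted p = 5.45e-09, edgeR). XBP1, which drives the secretory program, differed by 3.82 ± 0.24. IRF4 stood at 169 to 228 CPM in plasma cells and at 26.8 to 112 CPM in B cells, where the highest value was at 2 h, and differed by 2.35 ± 0.29. The classes did not overlap for PRDM1, XBP1 or IRF4. The elongation factor ELL2, which favours the secreted form of immunoglobulin mRNA, differed by 3.62 ± 0.20, and CREB3L2, an ER-bound transcription factor, by 4.82 ± 0.32. POU2AF1, a coactivator that B cells also use, differed by 1.78 ± 0.11. ZBTB20 was the member that did not pass the test.

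Of 8 surface receptors of plasma cells, 6 rose and 1 fell, with a median of 2.69. TNFRSF17 had 83.1, 84.3, 95.3 and 53.3 CPM in plasma cells and at most 0.629 CPM in B cells, a log2 difference of 8.10 ± 0.27 (adjusted p = 2.0e-11, edgeR). IL6R, the receptor of a plasma cell growth factor, stood at 175 to 228 CPM against 1.94 to 8.91 CPM and differed by 5.77 ± 0.23. SLAMF7 rose by 3.64 ± 0.18, and TNFRSF13B, the receptor TACI, by 2.16 ± 0.14. CD38 was the member that fell. It is a standard surface marker of plasma cells in humans, yet it had 3.48, 1.37, 1.22 and 0 CPM in plasma cells against 75.9 to 89.8 CPM in B cells, a log2 difference of -5.13 ± 0.29 (adjusted p = 3.5e-09, edgeR). Only 9 of 216 plasma cells held a UMI of CD38. At 3000 UMIs per cell it was detected in none of the plasma cells, 20.5% of B cells and 2.28% of T cells, where no UMI at that depth does not mean that the gene was not expressed.

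**Figure D2:**
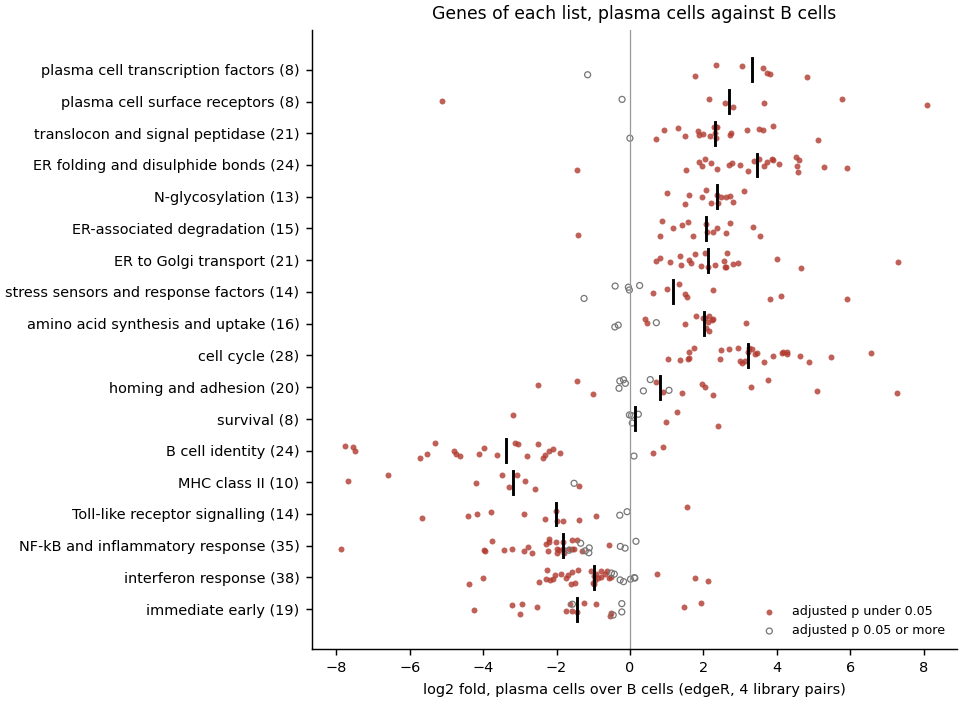
Log2 fold of plasma cells over B cells for the genes of each list (edgeR, 4 library pairs), with a point per gene and the list median marked. The secretory lists lie to the right of 0, with medians of 2.06 to 3.45, and B cell identity and MHC class II lie to the left, with medians of -3.37 and -3.19.

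The secretory machinery was higher at every stage from entry into the ER to the Golgi. Of 21 genes of the translocon and signal peptidase, which pass a new protein into the ER and trim it, 20 rose, with a median of 2.31. SEC11C, the catalytic subunit of the signal peptidase, had 732 to 979 CPM in plasma cells against 30.8 to 38.1 CPM in B cells and differed by 5.11 ± 0.14. SEC62 was the exception in this list, with a difference of 0.00 ± 0.12. Of 24 genes of ER folding and disulphide bonds, 23 rose, with a median of 3.45. The disulphide isomerase TXNDC5 stood at 1420, 1681, 1392 and 1120 CPM in plasma cells and at 33.7, 38.1, 22.2 and 26.8 CPM in B cells, a difference of 5.92 ± 0.14. It was detected in 98.6% of plasma cells at 3000 UMIs. HSP90B1, the ER chaperone GRP94, had 2880 to 4278 CPM against 242 to 361 CPM and differed by 3.86 ± 0.14. ERO1B, an oxidase that recharges the isomerases, was the member that fell, by 1.44 ± 0.28.

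Later steps of secretion moved the same way. All 13 N-glycosylation genes tested rose, with a median of 2.36, as did all 21 genes of ER to Golgi transport, with a median of 2.12. KDELR3, a receptor that returns ER proteins from the Golgi, had 41.2 to 68.0 CPM in plasma cells and at most 0.963 CPM in B cells, a difference of 7.30 ± 0.35. Of 15 genes of ER-associated degradation, which disposes of misfolded chains, 14 rose, with a median of 2.06. Of 14 stress sensors and response factors, 9 rose and none fell, with a median of 1.16. ERN1, the sensor kinase IRE1 that splices XBP1, had 18.6 to 23.2 CPM against at most 0.777 CPM and differed by 5.91 ± 0.37. Of 16 genes of amino acid synthesis and uptake, 13 rose and none fell, with a median of 2.02. PSPH, the last enzyme of serine synthesis, stood at 135 to 179 CPM against 14.2 to 40.5 CPM and differed by 3.15 ± 0.20. These lists exceeded the share of all genes that were higher, 25.5%, in each case.

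Genes of migration were divided. Of 20 homing and adhesion genes, 10 rose and 3 fell, with a median of 0.81. CCR10, the receptor for the chemokine of skin and mucosal epithelia, had 7.55, 7.29, 16.5 and 24.2 CPM in plasma cells and 1 UMI in all B cells, and differed by 7.28 ± 0.61. It was found in 45 of 216 plasma cells. CCR9, the receptor for a chemokine of the small intestine, differed by 3.76 ± 0.29 and was found in 35 of 216 plasma cells, so that most plasma cells held no UMI of either gene. ITGB7, a subunit of the gut-homing integrin, stood at 167 to 201 CPM against 17.0 to 41.9 CPM and rose by 3.29 ± 0.20. SELPLG, the ligand of selectins, rose by 5.10 ± 0.21. CCR7, which leads lymphocytes to lymph nodes, fell by 2.52 ± 0.35, while CXCR4, the receptor for the bone marrow chemokine, differed by -0.30 and did not pass the test. Among 8 survival genes, 3 rose and 1 fell. The kinase PIM2 rose by 2.41 ± 0.23, BCL2 fell by 3.20 ± 0.34, and MCL1, on which plasma cells are known to depend, differed by 0.23 ± 0.12 and did not pass the test.

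The B cell program was low. Of 24 B cell identity genes, 21 fell and 2 rose, with a median of -3.37. PAX5, which maintains B cell identity and is repressed by PRDM1, differed by -4.75. SPIB had 2.32 CPM with no LPS and none later, against 86.3 to 197 CPM in B cells, and differed by -7.49 ± 0.40. The inhibitory receptor CD22 had 1 library with any UMI, at 0.911 CPM, against 77.8 to 99.5 CPM, and differed by -7.54 ± 0.38. The members that rose were IRF8 and RALGPS2, by 0.62 and 0.90. Of 10 MHC class II genes, 9 fell and none rose, with a median of -3.19. BOLA-DRA stood at 93.5, 173, 113 and 102 CPM against 1618 to 3622 CPM, a difference of -4.19 ± 0.15, and CD74, the invariant chain, differed by -3.30 ± 0.11. CIITA, the master activator of the class II genes, differed by -2.58 ± 0.36.

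Genes through which a cell senses and answers LPS were also low. Of 14 genes of Toll-like receptor signalling, 11 fell and 1 rose, with a median of -2.01. TLR4 itself was scarce in both classes, at 0, 0.911, 0.611 and 0 CPM in plasma cells against 0.777 to 4.20 CPM in B cells, and differed by -2.30 ± 0.72 (adjusted p = 0.015, edgeR). LY96, the MD-2 protein that holds LPS, had at most 1.74 CPM in plasma cells against 24.5 to 39.0 CPM and differed by -4.40 ± 0.34. The list member that rose was the kinase IRAK1, by 1.56. TLR9 had no UMI in plasma cells and 40 in B cells, and was at least 4.53-fold lower in plasma cells, taking 3 UMIs over the whole class as the floor. Of 35 NF-kB and inflammatory response genes, 27 fell and none rose, with a median of -1.82. NFKB2 had a mean of 10.6 CPM against 202 CPM, and REL of 9.41 CPM against 192 CPM. Of 38 interferon response genes, 28 fell and 3 rose, with a median of -0.97, and the members that rose were ISG20, CMPK2 and HERC6. Among cells with at most 3000 genes, 10 of the 38 fell and 4 rose, with a median of -0.18. Of all 9640 genes tested in that setting, 1486 fell and 1181 rose, with a median of -0.28. These sums pool cells from all 4 treatments. Of 19 immediate early genes, the first to be transcribed on stimulation, 13 fell and 2 rose, with a median of -1.45. Genes of this group also respond to handling of cells, and their part in these differences was not tested.

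The named genes with the highest fold among those called held some that no list contained. CLDN3, a tight junction protein of epithelia, had 68.5, 87.0, 80.0 and 2.42 CPM in plasma cells and at most 0.241 CPM in B cells, a difference of 9.1 ± 0.34. GNLY, which encodes a granulysin of cytotoxic lymphocytes, had 696, 777, 788 and 398 CPM in plasma cells against 2.31 to 4.82 CPM in B cells and 134 to 166 CPM in T cells. It differed from B cells by 8.01 ± 0.22 and was found in 197 of 216 plasma cells. T cell markers stayed at or below 42.4 CPM in the same cells, which the rule partly set. No class of NK cells was formed for comparison. AQP3, a channel for water and glycerol, had 240, 249, 249 and 158 CPM against 0.722 to 1.98 CPM and differed by 7.62 ± 0.22. SLC7A10, KCNN3, WIPI1 and PALM3 differed by 7.58, 7.02, 6.69 and 6.62. LRP3, PLEKHH3 and GPR25 had no UMI in B cells and were at least 59.8-fold, 33.4-fold and 21.6-fold higher in plasma cells, taking 3 UMIs over all B cells as the floor. On the other side, FGD2, PPP1R1B, CARD9, CALCB and FCRL5 had no UMI in 216 plasma cells and were at least 161-fold, 127-fold, 54.9-fold, 50.7-fold and 47.5-fold lower than in B cells. LMO2, a transcriptional adaptor, had at most 0.611 CPM in plasma cells against 205 to 358 CPM, a difference of -8.53 ± 0.26.

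Many of the plasma cells were dividing. Of 28 cell cycle genes, all rose against B cells, with a median of 3.22. RRM2, a subunit of ribonucleotide reductase, had 103, 113, 103 and 196 CPM in plasma cells against 0.482 to 2.73 CPM and differed by 6.57 ± 0.25, and CDC6, which licenses replication, differed by 7.10. MKI67, the proliferation marker, had at least 2 UMIs in 36 of 69, 47 of 79, 33 of 56 and 7 of 12 plasma cells with no LPS, 2 h, 4 h and 8 h. The shares were 52.2%, 59.5%, 58.9% and 58.3%, or 56.9% (50.1 to 63.6) over all, with no difference between libraries beyond their intervals. MKI67 had exactly 1 or 2 UMIs in 26 cells, close to the limit. At 3000 UMIs per cell MKI67 was detected in 38.4% of plasma cells, 1.35% of B cells and 3.22% of T cells. Cells with at least 2 UMIs of MKI67 had a median of 33472 UMIs, against 20235 in the others, and JCHAIN stood at 10011 CPM in them and at 18862 CPM in the others. The cut was on raw UMIs, which deeper cells reach more easily, so the difference in depth was partly set by it. The cell cycle share was as low as 0.036% in a cell with at least 2 UMIs of MKI67 and as high as 0.961% in one with at most 1. The share of a cell's UMIs in JCHAIN and that in the cell cycle genes had Spearman correlations across cells of -0.56, -0.52, -0.31 and -0.37 within the libraries, a description over cells that share a library and an UMI total. When only plasma cells with at most 1 UMI of MKI67 were compared with B cells, 2 of the 28 cell cycle genes were higher and 11 lower, with a median of -0.55, where MKI67, itself a member of the list, made the choice. Interferon response genes were then lower in 17 and higher in 3 of 38 cases. Of all 9855 genes tested in that setting, 2455 were lower and 1392 higher, with a median of -0.39.

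Immunoglobulin genes could be followed only in part. The tables named 2 of 14 listed immunoglobulin genes and receptors, PIGR and FCRL5, and the heavy and light chain loci appeared, if at all, under identifiers without a symbol. The gene with the most UMIs in plasma cells was ENSBTAG00000047700, with 3.22% of all their UMIs, and ENSBTAG00000048135 was the third, with 1.81%. The tables do not say what they encode. They were compared cell by cell after their values had been seen. ENSBTAG00000047700 reached at least 1% of a cell's UMIs in 81 plasma cells without the other, ENSBTAG00000048135 did so in 64 cells without the first, both did so in 2 cells, and neither in 69. The highest shares in a cell were 30.1% and 15.7%. The counts per library are given in the order first, second, both and neither. These were 25, 23, 0 and 21 cells with no LPS. The 2 h library had 26, 26, 1 and 26 of them, the 4 h library 24, 13, 1 and 18, and the 8 h library 6, 2, 0 and 4. Other genes differed between the kinds, given here as a description. CCR9 had a UMI in 20 of 81 cells of the first kind, 1 of 64 of the second and 14 of 69 with neither. CXCR4 stood at 121, 378 and 388 CPM and GNLY at 969, 399 and 790 CPM in the same order. JCHAIN stood at 15333, 11329 and 10608 CPM, and MKI67 had at least 2 UMIs in 39 of 81, 36 of 64 and 46 of 69 cells.

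**Figure D3:**
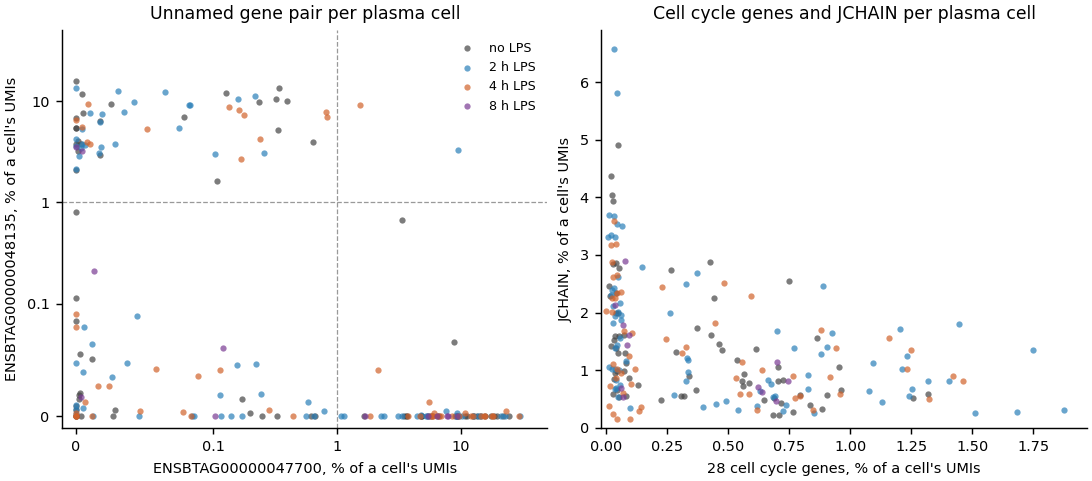
Left, the share of each plasma cell's UMIs in ENSBTAG00000047700 and in ENSBTAG00000048135, on axes linear to 0.1% and logarithmic above. Right, the share in 28 cell cycle genes against the share in JCHAIN, on linear axes. Points are cells, coloured by library. Only 2 cells pass 1% for both unnamed genes, and cells with many cell cycle UMIs hold smaller shares of JCHAIN.

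The last question was how plasma cells differed with time in LPS. Each difference is log2((CPM + 1)/(CPM + 1)) of summed UMIs relative to the library with no LPS, for genes that reached 50 UMIs in the compared pair of sums. At 2 h, 39 of 5148 genes were at least 2-fold higher (0.758%) and 18 at least 2-fold lower (0.35%). At 4 h, 79 of 4725 were higher (1.67%) and 42 lower (0.889%). At 8 h, with 12 cells, 58 of 3673 were higher (1.58%) and 154 lower (4.19%). B cells, with more cells, gave 3.18% and 1.89%, 2.93% and 2.53%, and 1.99% and 2.57%. Their larger sums took 7633, 7478 and 7044 genes past the same minimum, so the shares of the classes cover unlike sets of genes. In plasma cells few genes reached 2-fold, and several of those did so through 1 cell. A single cell held at least 50% of the UMIs, in the library where the gene was higher, of 5 of the 39 genes higher at 2 h, 4 of 79 at 4 h and 11 of 58 at 8 h. Among the lower genes it did so, with no LPS, for 7 of 18, 8 of 42 and 9 of 154.

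Interferon response genes were higher at 4 h. All 38 such genes in the tables were higher at 4 h than with no LPS, with a median of 2.32 and no minimum of UMIs. With the minimum of 50 UMIs, 28 of 28 were higher, against 2051 of 4725 among all genes that passed it. The highest share of UMIs in 1 cell among these 28 genes was 36%, a value that leaves out the list genes below the minimum. Over all 38 genes, 31 were higher and 6 lower at 2 h, with a median of 0.54. At 8 h, 22 were higher and 13 lower, with a median of 0.19. Their summed level was 1201, 1580, 5347 and 1341 CPM in the order no LPS, 2 h, 4 h and 8 h. B cells went from 2307 CPM to 5356, 11555 and 3212, and T cells from 1536 CPM to 2236, 5555 and 2080. The sum was highest at 4 h in all classes. At 2 h it lay closer to the level with no LPS in plasma cells and in T cells than in B cells. Of the 79 genes at least 2-fold higher at 4 h, 24 were of this list, but the minimum of 50 UMIs admits a gene through the library where it is high, and 28 of the list passed it at 4 h against 15 at 2 h and 12 at 8 h. Per cell, the list took a median of 0.110%, 0.146%, 0.371% and 0.174% of UMIs with no LPS, 2 h, 4 h and 8 h, with a highest cell of 3.09% at 4 h.

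MX1, a GTPase that traps viral nucleocapsids, had 2, 11, 242 and 2 UMIs in plasma cells with no LPS, 2 h, 4 h and 8 h, or 1.16, 5.01, 148 and 4.85 CPM. Its log2 difference at 4 h was 6.10, the largest named rise at that time, against 2.53 in B cells, and 26 of 56 cells held a UMI. MX1 in T cells stood at 273 CPM at 4 h, above the plasma cells. ISG15, a ubiquitin-like modifier, had 179, 689, 3423 and 85 UMIs, or 104, 314, 2090 and 206 CPM. After 2 h its difference was 1.58 (counting interval 1.35 to 1.84). After 4 h it was 4.32 (4.11 to 4.55), and after 8 h it was 0.98 (0.60 to 1.37). At 3000 UMIs per cell, ISG15 was detected in 17.4%, 38.0%, 76.8% and 25% of plasma cells, and at 4 h in 78.3% of B cells and 52.0% of T cells.

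MX2 had 23, 47, 278 and 4 UMIs and was higher at 4 h by 3.57 (3.05 to 4.35). OAS1Z, an enzyme of the antiviral 2-5A route, had 9, 31, 117 and 10 UMIs and was higher by 3.54 (2.80 to 4.94). IRF7, which amplifies the interferon response, had 46, 98, 305 and 18 UMIs and was higher by 2.76 (2.35 to 3.28). IFIT3 was at 0 with no LPS and at 2 h, and had 77 UMIs in 11 cells at 4 h. Each of these genes was thus highest at 4 h. Whether interferon RNA of other cells entered these counts as free RNA was not tested.

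**Figure D4:**
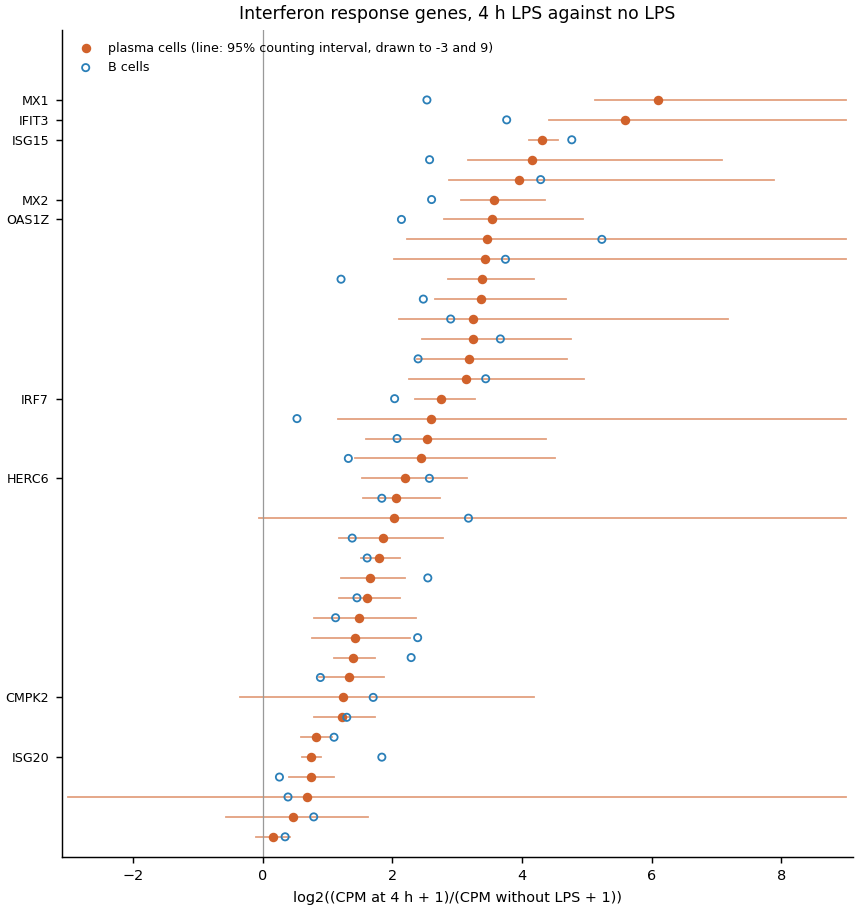
Log2((CPM at 4 h + 1)/(CPM with no LPS + 1)) of interferon response genes in plasma cells and in B cells, with a point per gene and class. Lines are exact 95% counting intervals of the ratio without the pseudocount of 1. All genes shown lie above 0 in plasma cells, up to MX1 at 6.10, and the genes named in the text are labelled.

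NF-kB and inflammatory response genes gave no such pattern. Over the 35 genes, 22 were higher and 12 lower at 2 h, with a median of 0.33, against 34 of 35 higher in B cells with a median of 1.86. At 4 h, 16 were higher and 17 lower, and at 8 h the counts were again 16 and 17, with 2 genes without a UMI each time. Over genes with a UMI the medians were -0.28 at 4 h and -0.02 at 8 h, where B cells had 0.96 and 1.03 over the whole list. The difference at 2 h was small, and among cells with at most 3000 genes its median was -0.62. NFKBIA, the inhibitor that NF-kB itself induces, had 86.5, 203, 101 and 46.1 CPM in plasma cells, against 276, 910, 591 and 405 CPM in B cells. Its difference at 2 h was 1.22 (0.96 to 1.51). With each cell weighted equally it was 0.71, and 46% of its UMIs with no LPS came from 1 cell. RELB, a subunit of the factor, had 25, 72, 51 and 9 UMIs and was higher at 2 h by 1.12 (0.50 to 1.89). Per cell, the list took a median of 0.0755%, 0.0819%, 0.0656% and 0.0683% of UMIs with no LPS, 2 h, 4 h and 8 h, so a typical plasma cell differed little between treatments.

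Single cells carried much of the NF-kB list. With no LPS, 1 cell of 60150 UMIs, the largest of that library, held 39.0% of the library's UMIs of these genes, which took 1.54% of its own. Its monocyte markers took 0.106%, where the median of the library was 0.00620%. At 2 h, 1 cell held 21.3%, and its monocyte markers took 0.00588%, where the median was 0.00743%. The highest share within a cell with no LPS, 4.80%, was in the smallest plasma cell, which held 6.36% of the library's UMIs of the list, with 3144 UMIs, 15 of JCHAIN and 6 of MZB1. The same cell held 3.02% of its UMIs in monocyte markers, the highest share of its library, where the median was 0.00620%. At 8 h, 1 cell of 29033 UMIs had 3.7% of them in the list and held 82.2% of the library's UMIs of these genes, while the next cell stood at 0.113%. Its monocyte markers took 0.0207%, the highest share of its library, where the median was 0.00977%. The 8 h sums of this list are therefore mostly the values of 1 cell. The summed level was 1380, 1509, 767 and 3166 CPM with no LPS, 2 h, 4 h and 8 h, and without the cell with the most list UMIs in each library it was 872, 1216, 731 and 608 CPM. Without these cells the medians of genes that passed the minimum were 0.52 at 2 h, 0.14 at 4 h and -0.31 at 8 h, against 0.48, -0.54 and 0.47 with them, so the directions at 4 h and 8 h rested on them.

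**Figure D5:**
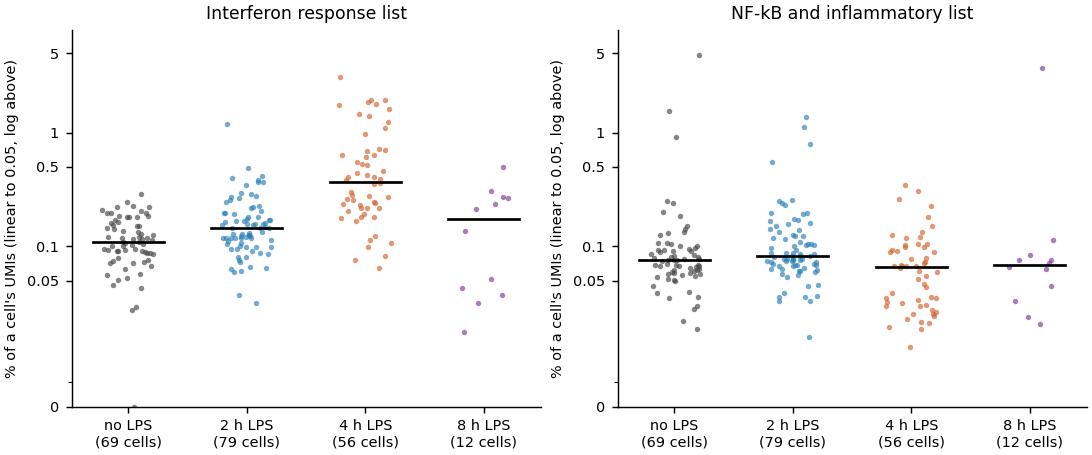
Share of each plasma cell's UMIs in the interferon response list and in the NF-kB and inflammatory response list, by library, on an axis linear to 0.05% and logarithmic above. The interferon cells at 4 h lie higher as a group, with a median of 0.371%, while the NF-kB medians stay between 0.0656% and 0.0819% with single cells up to 4.80%.

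By treatment, the 5 genes with the largest positive and the 5 with the largest negative difference were listed, given 100 or more UMIs in the pair of sums. Many of them came down to few cells. At 2 h, TAP, a bovine epithelial beta-defensin, was at 0 with no LPS and had 109 UMIs at 2 h, of which 99% came from 1 cell. CXCL8, the chemokine of neutrophils, had 16.8 CPM with no LPS and 133 CPM at 2 h, with 36% in 1 cell, and its difference was 2.91, or 1.38 with cells weighted equally. CCR7 had 28, 152, 128 and 0 UMIs and CD83, an activation marker of B and dendritic cells, had 30, 125, 97 and 3. Their differences at 2 h were 2.02 (1.5 to 2.73) and 1.65 (1.12 to 2.33), found in 22 and 28 of 79 cells, or 0.84 and 1.85 with cells weighted equally. B cells held CD83 at 139 CPM with no LPS and at 1198 CPM at 2 h, far above the 56.9 CPM of plasma cells at 2 h. At 4 h, HSPA1A, a heat shock protein, had 377 UMIs, of which 97% came from 1 cell. At 8 h, IL1RN, CXCL8, GRO1 and CXCL2 had 99%, 98%, 95% and 95% of their UMIs in 1 cell.

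Among the falls, CCL2, a chemokine of monocytes, was spread over the most cells. It had 407, 33, 6 and 11 UMIs, or 236, 15, 3.66 and 26.7 CPM, with no LPS, 2 h, 4 h and 8 h, and was found in 58 of 69 cells with no LPS, where 44% of the UMIs came from 1 cell. The differences were -3.89, -5.67 and -3.1. With each cell weighted equally they were -4.59, -6.01 and -3.82. T cells held CCL2 at 177 CPM with no LPS and at 54.0, 81.3 and 90.1 CPM later, so plasma cells were not the only class with a lower value, and free CCL2 RNA of other cells was not tested. CCL5, CCL4 and IDO1 were lower too, but 83%, 89% and 86% of their UMIs with no LPS came from 1 cell. The remaining places in these lists were held by genes with no symbol in the tables.

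Most genes of the secretory program stayed within 2-fold, as did most of all genes. ER folding genes that passed the minimum had medians of -0.00 after 2 h, -0.12 after 4 h and -0.34 after 8 h. None of 23, 22 and 22 was 2-fold different. Among all genes that passed the minimum, 57 of 5148, 121 of 4725 and 212 of 3673 were. Finding none in a list this small therefore says little of the list. At 8 h, 3 of 19 genes of ER to Golgi transport and 1 of 14 of ER-associated degradation were at least 2-fold lower, where 4.19% of all genes were. HSPA5, the chaperone BiP, stood at 1593, 1586, 1257 and 1016 CPM, and its intervals at 4 h and 8 h, -0.43 to -0.26 and -0.80 to -0.50, lay below 0. HERPUD1, a target of the unfolded protein response, stood at 636, 660, 492 and 303 CPM and was more than 2-fold lower at 8 h, by -1.07 (-1.35 to -0.80), with 45% of its UMIs there in 1 cell. The stress factor DDIT3 stood at 41.2, 55.1, 82.4 and 46.1 CPM and was higher at 4 h by 0.98 (0.57 to 1.43). Cell cycle genes had medians of 0.22, 0.02 and -0.42, with 9 of 28 at least 2-fold lower and 1 higher at 8 h, where 12 cells were counted. PRDM1 and XBP1 had intervals that held 0 at each time, and GPR183, a receptor that positions activated B cells, stood at 45.9, 62.9, 90.4 and 136 CPM, with differences of 0.45, 0.96 and 1.54.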

How the data were processed

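The authors aligned reads to the cattle genome ARS-UCD1.2/bosTau9 with Cell Ranger and deposited, for each scRNA-seq library, the raw counts of UMIs by gene and barcode. The scATAC-seq tables were not used here, since the rule needs UMIs of JCHAIN and MZB1. Members and gene lists were chosen with earlier results of these data known, and list genes were named with the 15 largest rises and falls against B cells and the 5 by time. Depth was 30902952 to 63770426 UMIs per library. Classes were compared with edgeR 4.0.16 (R 4.3.3), TMM scaling, on genes with at least 20 UMIs, and by time with a pseudocount of 1 CPM and no test. Each library is 1 sample of another treatment, and p-values measure only the spread of the class difference between these samples of 1 pool. The scripts used Python 3.11.15 and scipy 1.17.1 and were tested on simulated data. Alternatives were other scalings, minimums, cell criteria, DESeq2 1.42.0 and leaving out each library. No promoter or other sequence was used. Some genes are not reported here.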

Additional observations from a re-analysis of the deposited data

Results flagged for a closer look

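NF-kB and inflammatory response genes had list medians of opposite sign in plasma cells and B cells at 4 h of LPS, but the sign in plasma cells did not hold in other settings. Among the 17 genes with at least 50 UMIs in plasma cells, the median difference from no LPS was -0.54 on the log2 scale, with 2 genes at least 2-fold higher and 7 lower, while the same genes had a median of 1.10 in B cells. With a minimum of 20 UMIs the plasma cell median was 0.020, and without the cell with the most UMIs of the list in each library it was 0.14. With no LPS that cell held 39.0% of the library's UMIs of the list. Over all 35 genes, 16 were higher and 17 lower in plasma cells. The difference between the classes was not tested, since each treatment had 1 library.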

How the results depend on the processing

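Each library stands for 1 treatment, and 12 plasma cells at 8 h limit every value there. The settings with CD14 and CD3E at most 2, with MKI67 at most 1 and without the cell with most UMIs of the NF-kB list were chosen after seeing the data. Unless a setting left fewer cells, the cause of a change was not tested. With at least 5000 UMIs the shares were 1.86%, 2.08% and 1.44% with no LPS, 2 h and 4 h, since kept barcodes fell in number. With at most 3000 genes they were 0.537%, 0.299%, 0.308% and 0.0910%. CD14 and CD3E at most 2 gave 1.47% with no LPS, and thinning gave 1.27% at 2 h. Genes higher and lower than in B cells were 1181 and 1486 with at most 3000 genes, which left fewer cells. They were 1392 and 2455 with MKI67 at most 1, which also left out the cells with MKI67. Leaving out each library gave 2019 to 2470 higher and 2119 to 2575 lower. DESeq2 gave 2043 and 2221, and DESeq2 size factors moved the median of all genes from -0.10 to -0.16, while unscaled CPM put it at -0.46. No paired analysis was possible because the treatments share no replicate number beyond 1, and the library was already a term of the class comparison. The number of genes at least 2-fold different was 57, 121 and 212 at 2 h, 4 h and 8 h. It was 26, 77 and 108 with a pseudocount of 10 CPM, 935, 1253 and 2827 with no minimum, and 198, 293 and 643 with a minimum of 20 UMIs. Equal weights gave 110 and 189 at 2 h and 4 h, at most 3000 genes 79 of 1216 and 115 of 713 at 4 h and 8 h, against 121 of 4725 and 212 of 3673, and MKI67 at most 1 gave 130 at 8 h. The NF-kB median turned to -0.62 at 2 h and -2.48 at 8 h with at most 3000 genes and stood at -1.76 at 4 h. It turned to 0.020 at 4 h with 20 UMIs and to -0.017 at 8 h with no minimum. Equal weights gave -1.06 at 4 h and -0.18 at 8 h, JCHAIN and MZB1 of at least 10 gave -0.65 at 8 h, and MKI67 at most 1 gave -1.17 at 4 h and 2.88 at 8 h. Without the cell with most UMIs of the list it was 0.14 at 4 h and -0.31 at 8 h. The interferon median kept its direction in every setting at 4 h and was 1.07 at 8 h with at most 3000 genes.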
